A study of Mus musculus with 9 samples.

Results

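A probe set is a small group of probes that reads 1 stretch of an exon, and on this mouse exon array most probe sets belong to 1 gene. Some were assigned to several genes at once. The probe sets described here are those to which the platform's probe-to-gene table gives 2 or more gene symbols and whose mean log2 intensity over all 9 arrays lay above the 25th percentile of all probe sets, a level of 5.01. Of 229581 probe sets, 3965 had several symbols, and 2677 of these passed the filter, while 1288 lay at or under it. The 2677 probe sets fell into 607 different combinations of symbols, called symbol sets here, of 856 combinations before the filter. At the edge of the filter, the probe set of Rragb with EG436240 averaged 5.01 and that of Olfr1272 with Olfr1273 5.02, while that of Jmjd7 with Pla2g4b lay just under the limit and was left out.

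Perigonadal white adipose tissue of 4-month-old mice was the source of the RNA, with 3 arrays for each of 3 genotypes. The controls were wild type (WT). The G609G group was homozygous for the G609G allele of the lamin A/C gene Lmna, which makes the truncated lamin A called progerin and serves as a mouse form of the premature ageing syndrome progeria. The LCS group was homozygous for an allele with which Lmna makes lamin C and no lamin A. The labels name no promoter or cell type that would limit either allele to fat. They give no sex, litter or strain, and the design text speaks of biological replicates without saying from how many animals each came, so the p-values measure the spread between these arrays. The question taken from the labels is how the 2 mutant genotypes differ from WT and from each other.

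Several genes can share a probe set for different reasons. Duplicated genes keep near-identical exons, so a probe pairs with the RNA of each copy. Overlapping neighbours, readthrough transcripts and old or predicted gene models put 2 names on 1 stretch of genome. The signal of a shared probe set is then the summed signal of all RNAs that pair with it, and it names the group of genes, not the gene. Gene families of this kind are prominent in immunity, in protease inhibition, in drug and fatty acid metabolism and in the sense of smell.

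The promoters of 5 genes are printed as examples of near-identical copies and of a stretch with 2 names, each running from 250 bases before to 50 bases after the start of the gene, on build GRCm38.p6 of the mouse genome as given by RefSeq. The probes' own sequences were not used here, and a promoter is not what the probes read. Lyz1 and Lyz2 lie next to each other on the minus strand of chromosome 10 (chr10:117292819-117293118 and chr10:117282223-117282522), and 249 of 300 aligned bases (83.0%) matched, with the bases that did not match in capitals.
Lyz1: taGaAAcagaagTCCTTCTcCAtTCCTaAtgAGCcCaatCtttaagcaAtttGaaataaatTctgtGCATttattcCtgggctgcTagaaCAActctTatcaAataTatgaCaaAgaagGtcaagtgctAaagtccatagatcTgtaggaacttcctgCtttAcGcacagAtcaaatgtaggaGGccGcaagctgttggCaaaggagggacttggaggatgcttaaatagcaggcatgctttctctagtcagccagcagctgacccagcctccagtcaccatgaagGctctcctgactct
Lyz2: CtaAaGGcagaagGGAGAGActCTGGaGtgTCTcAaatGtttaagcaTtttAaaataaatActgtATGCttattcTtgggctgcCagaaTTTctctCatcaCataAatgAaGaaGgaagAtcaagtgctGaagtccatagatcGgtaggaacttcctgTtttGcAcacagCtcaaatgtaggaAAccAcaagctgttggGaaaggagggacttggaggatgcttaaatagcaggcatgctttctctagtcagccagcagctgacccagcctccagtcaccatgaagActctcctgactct
Serpina1a and Serpina1b are 2 copies of the alpha-1 antitrypsin gene on the minus strand of chromosome 12 (chr12:103863570-103863869 and chr12:103738140-103738439), and 273 of 300 bases (91.0%) matched, marked in the same way.
Serpina1a: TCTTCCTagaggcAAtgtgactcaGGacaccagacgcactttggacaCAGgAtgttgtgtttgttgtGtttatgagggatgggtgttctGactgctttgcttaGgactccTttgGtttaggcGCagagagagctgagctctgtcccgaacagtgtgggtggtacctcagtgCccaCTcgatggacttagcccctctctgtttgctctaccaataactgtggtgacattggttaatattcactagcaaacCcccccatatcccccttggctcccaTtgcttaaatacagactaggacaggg
Serpina1b: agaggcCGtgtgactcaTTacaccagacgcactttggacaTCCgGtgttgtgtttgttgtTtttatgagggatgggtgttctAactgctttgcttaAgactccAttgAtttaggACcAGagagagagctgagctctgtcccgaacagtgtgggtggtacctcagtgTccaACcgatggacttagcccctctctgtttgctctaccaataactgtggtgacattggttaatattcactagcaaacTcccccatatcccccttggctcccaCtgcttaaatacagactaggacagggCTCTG
C1qtnf5 and Mfrp are unrelated in name and share 1 start on the plus strand of chromosome 9 (chr9:44101520-44101819), so that all 300 bases were the same, with the 50 bases after the start in capitals.
C1qtnf5, also Mfrp: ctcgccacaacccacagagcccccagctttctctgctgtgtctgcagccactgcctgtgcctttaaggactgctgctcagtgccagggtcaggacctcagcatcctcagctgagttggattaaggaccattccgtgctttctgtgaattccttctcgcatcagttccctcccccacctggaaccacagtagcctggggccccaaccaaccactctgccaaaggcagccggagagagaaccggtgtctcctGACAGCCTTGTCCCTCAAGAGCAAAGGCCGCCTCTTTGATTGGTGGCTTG
Of 471 symbol sets with 2 symbols, 257 had both promoters in the table, and in 19 of these the promoters were the same stretch.

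The values were log2 intensities, and their median differed between groups, at 7.21 ± 0.06 for WT, 6.57 ± 0.06 for the G609G arrays and 7.23 ± 0.04 for the LCS arrays (SD, n = 3 each). These medians are over all probe sets. Each array was therefore shifted by its median deviation from the probe set means, taken over the probe sets above the filter only. That moved G609G by 0.48 against WT, and every level and fold below is on that shifted log2 scale unless the deposited scale is named. Every set described as having risen or fallen was also called in that direction on the deposited values and after quantile normalization, unless the same sentence says otherwise. Adipocyte markers were high on all arrays, with a median over the list of 12.48 to 12.66. The marker lists of 3 other tissues differed between the groups by large amounts. The median of skeletal muscle markers was 4.41 to 4.63 in WT, 11.6 to 11.7 in G609G and 4.60 to 4.71 in LCS, and 17 of 17 markers were higher in G609G. That of epididymis markers was 12.2 to 12.3, 5.89 to 6.30 and 11.66 to 11.69, with 11 of 14 lower in G609G. That of testis markers was 9.86 to 9.98, 8.02 to 8.30 and 5.39 to 5.49, with 10 of 11 lower in G609G and 11 of 11 lower in LCS. Endothelial markers were at 8.56 to 8.76, 9.46 to 9.53 and 9.16 to 9.21 (6 of 7 higher in G609G), and pancreas markers at 3.67 to 3.91, 4.30 to 4.54 and 3.68 to 3.83 (4 of 6 higher in G609G). In tissue RNA, fewer cells of a type and less RNA per cell cannot be told apart.

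In G609G the sets rose more often than they fell. Of the 607 sets, 328 (54.0%) were higher and 125 (20.6%) lower in G609G than in WT by limma with Benjamini-Hochberg adjustment over all 15572 features, beside 35.3% higher and 28.9% lower over all genes and sets. The rises depended on the scale. Called on the deposited values were 178 higher and 255 lower, and 178 rises and 121 falls held on every one of 3 scales, the shifted, the deposited and the quantile-normalised. Without the 69 sets of olfactory and vomeronasal receptors, described below, 262 sets were higher and 125 lower in G609G, and 121 of each held on all 3 scales. In LCS fewer sets were called and more of them were lower, with 67 higher and 126 (20.8%) lower than in WT, beside a background of 15.9% and 14.8%. G609G against LCS gave 351 higher and 118 lower sets, beside 38.4% and 28.7%, and on the deposited values 214 and 231. Both mutants were compared with the same WT arrays. These counts describe the filtered sets only, since 82 of the 607 had a deposited group mean at or under the filter in at least 1 group, 38 of them in WT, 11 in G609G and 65 in LCS.

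By names alone, 315 sets held members of 1 gene family and 117 joined genes of different names. The other 175 held at most 1 symbol that was not a predicted name and are called sets with a predicted name. Some sets of the first 2 kinds also hold a predicted name, and such a name can be an older one of the same gene, as for Klf9. Family sets rose more often than they fell in G609G. Of them 192 (61.0%) were higher and 64 (20.3%) lower than in WT, with a median fold of 0.63 on the log2 scale, of which 123 rises and 63 falls held on every scale. Receptor sets made up 69 of them, and of the other 246 family sets 126 (51.2%) were higher and 64 lower, with 66 and 63 held. Sets of different names were near evenly split, with 42 (35.9%) higher and 35 (29.9%) lower, of which 20 and 34 held, and a median fold of 0.02, beside 0.08 over all features. Of the sets with a predicted name, 94 (53.7%) were higher and 26 (14.9%) lower, and 35 and 24 held on every scale. In LCS, 35 family sets (11.1%) were higher and 56 (17.8%) lower, beside 15.9% and 14.8% over all features. Without the receptor sets, 35 of 246 were higher and 48 (19.5%) lower. Among sets with a predicted name the falls outnumbered the rises, with 12 (6.86%) higher and 46 (26.3%) lower. The split also differed by the number of probe sets behind a set. Where a set rested on 1 probe set, 145 of 228 (63.6%) were higher in G609G and 27 (11.8%) lower, with a median fold of 0.79, and 99 and 25 held on every scale. Where it rested on 10 or more, 36 of 86 (41.9%) were higher and 30 (34.9%) lower, with a median fold of 0.11, but 7 rises and all 30 falls held, which turns the direction. The background was 35.3% higher and 28.9% lower. The sets of 1 probe set were also dimmer, with a median WT level of 6.52 against 8.26. Receptor sets, 69 sets with 95 probe sets, were not left out of this split. Of 60 sets whose genes overlap, 19 (31.7%) were higher and 16 (26.7%) lower in G609G, near the background of 35.3% and 28.9%, and 7 and 15 held. Of 117 sets whose genes lie on different chromosomes, 73 (62.4%) were higher and 21 (17.9%) lower, but only 23 of these rises held, against 20 falls.

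Smaller families of several members showed both directions. The counts by family here and below stand beside 35.3% higher and 28.9% lower in G609G over all features. In LCS that background was 15.9% and 14.8%. All 3 sets of C-type lectins, immune cell surface receptors, were lower in G609G, though that of Clec2h and Clec2i lost its call without the filter (-0.35, limma, adjusted p = 0.216), and all 3 sets of the UDP-glucuronosyltransferases 2, which conjugate steroids and drugs, were higher. Of 19 sets of zinc finger genes, which mostly encode DNA-binding repressors, 6 were called higher and 2 lower in G609G, and none of the 6 rises held on every scale. Their share of rises was near the background. Keratin sets, of epithelial filaments, gave 4 rises, of which 2 held. Of the 5 sets of alpha protocadherins, neuronal adhesion molecules made from 1 gene cluster, 3 were higher and 1 of these held.

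**Figure D1:**
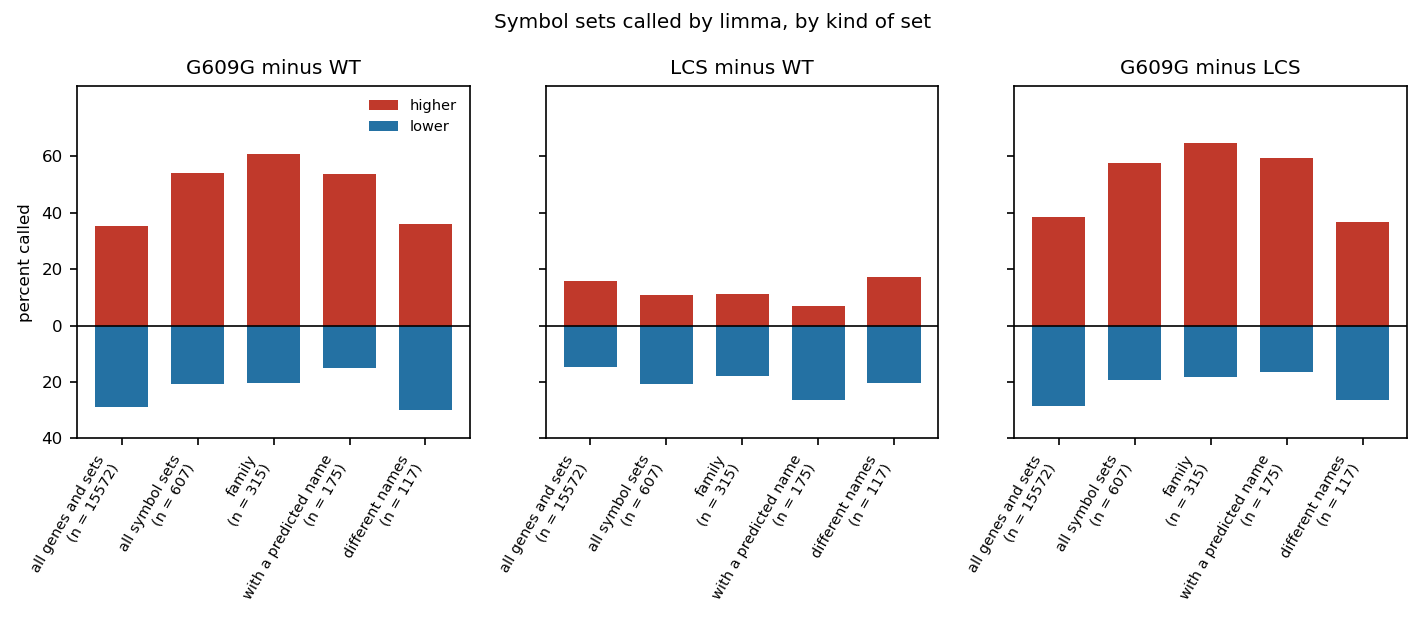
Percent of features called by limma (vertical axis, higher above 0 and lower below it) in each of the 3 comparisons, for all 15572 genes and sets, all 607 symbol sets, 315 family sets, 175 sets with a predicted name and 117 of different names. Family sets were higher than WT in G609G in 61.0% of cases and sets of different names in 35.9%.

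Several sets of immune genes fell in G609G and rose in LCS. Cd1d1 and Cd1d2 are lipid-presenting relatives of the class I histocompatibility molecules. Their 9 shared probe sets stood at 10.84, 10.86 and 10.84 in WT, 8.31, 8.45 and 8.35 in G609G and 11.11, 11.21 and 11.13 in LCS. All 3 groups were apart. The fold was -2.48 ± 0.04 (SE, limma, adjusted p = 2.64e-11) in G609G and 0.30 ± 0.04 (adjusted p = 0.000413) in LCS, each against WT. The shared probe set of Klrb1b and Klrb1c, lectin-like receptors of natural killer cells, read 8.50, 8.45 and 8.74 in WT, 4.25, 5.19 and 4.46 in G609G and 9.63, 10.03 and 9.70 in LCS. Again no array of 1 group reached another group, with folds of -3.93 ± 0.21 and 1.23 ± 0.21. The 5 probe sets of Igh and Igh-6, the immunoglobulin heavy chain locus and its mu chain, fell by 1.03 in G609G and rose by 0.44 in LCS. Not all such sets fell. Of the 3 immunoglobulin sets, 2 were lower in G609G and 1, that of Igl and Igl-V1, was 1.06 higher. The 1 T cell receptor set, of Tcrg-V2 and Tcrg-V3, was 1.93 higher there.

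Sets of complement and macrophage genes moved the same way. C4a and C4b encode the complement component C4 and share 31 probe sets, the levels of which were 10.99 on each WT array, 10.27, 10.28 and 10.25 in G609G and 11.69, 11.71 and 11.66 in LCS. All 31 probe sets were called lower in G609G, by between 1.31 and 0.32, and 30 of 31 were called higher in LCS. Lyz1 and Lyz2, the lysozymes whose promoters are printed above, share 9 probe sets, at 12.07, 12.06 and 12.03 in WT, 11.48, 11.37 and 11.38 in G609G and 12.30, 12.34 and 12.29 in LCS. The set fell by 0.64 (SE 0.03) in G609G, with 8 of 9 probe sets called lower and 1 higher, and rose by 0.26 (SE 0.03) in LCS. Cd59a and Cd59b block the last step of complement attack, and their set fell by 0.82 in G609G and rose by 0.71 in LCS. Fcgr2b and Fcgr3, receptors for immunoglobulin G, moved by -0.66 and 0.35. Mgl1 and Mgl2, macrophage lectins, fell by 0.99 in G609G, and their difference of 0.41 in LCS missed the threshold (limma, adjusted p = 0.0676, and 0.0178 with replicate number as a block). The macrophage markers, which include Lyz2, moved with these sets, with a list median of 9.26 to 9.28 in WT, 8.37 to 8.54 in G609G and 9.59 to 9.62 in LCS. Of 10 markers, 8 were lower and 1 higher in G609G, and 8 were higher in LCS. Their part in these results was not tested.

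Among the histocompatibility genes, 3 of 13 sets were called higher and 6 lower in G609G, and of these the 6 falls held on every scale and none of the rises did. The background over all features was 35.3% higher and 28.9% lower. H2-DMb1 and H2-DMb2, which load peptides on class II molecules, fell by 1.09 in G609G and rose by 0.44 in LCS. H2-T10 and H2-T22, ligands of some gamma-delta T cells, fell by 0.71 in G609G and differed by -0.01 in LCS. Of the 6 sets of killer cell lectin-like receptors, 4 were higher in G609G and 1, that of Klrb1b and Klrb1c, was lower. A lymphocyte marker list showed no common direction, with 2 of 10 markers higher and 2 lower in G609G.

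Several sets with genes of the male tract and of secreted inhibitors fell in both mutants. Defb12 and Defb35 encode beta-defensins, small antimicrobial peptides. Their set stood at 12.37, 12.29 and 12.25 in WT, 7.82, 7.32 and 7.60 in G609G and 10.79, 10.76 and 10.79 in LCS. The G609G arrays lay farthest down, with a fold of -4.73 ± 0.10 (adjusted p = 9.63e-11), and LCS lay between, at -1.52 ± 0.10. The other beta-defensin set, of Defb11 and Defb2, was 0.74 higher in G609G, though not called on the deposited values (0.26) or without WT replicate 2 (limma, adjusted p = 0.052), and fell by 1.79 in LCS. The probe set of Serpina1a and Serpina1b, antitrypsins that inhibit neutrophil elastase, stood at 8.23, 7.92 and 8.29 in WT, 5.21, 5.15 and 4.76 in G609G and 5.94, 5.66 and 5.28 in LCS. Its folds were -3.11 ± 0.19 and -2.52 ± 0.19. The 15 probe sets common to all 5 Serpina1 genes fell by 2.04 and 1.85, and the set of Serpina1b, Serpina1d and Serpina1e fell by 4.68 and 2.90. Of 7 serpin sets, 5 were lower in G609G and 2 higher, beside 28.9% lower and 35.3% higher over all features. Mup2 and Mup5, carriers of pheromones known from urine, fell by 2.23 in G609G and 3.25 in LCS. The epididymis list fell in G609G as given above, and in LCS 7 of its 14 markers were higher and 4 lower. Liver markers had a list median of 5.60 to 5.69 in WT, 4.74 to 5.21 in G609G and 4.81 to 5.12 in LCS, with 5 of 7 lower in LCS. The part of either list in these falls was not tested.

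Some sets with germ cell and Leydig cell genes fell in both mutants as well. The probe set of Cmtm1 and Cmtm2a, chemokine-like membrane proteins, read 10.38, 10.39 and 10.34 in WT, 6.20, 6.01 and 6.59 in G609G and 4.85, 4.57 and 4.40 in LCS. LCS lay below G609G, with folds against WT of -5.76 ± 0.15 and -4.10 ± 0.15. Insl3, a hormone of Leydig cells, overlaps the cytokine signalling kinase Jak3, and their 2 probe sets read 10.73, 10.75 and 10.71 in WT, 7.61, 7.83 and 7.82 in G609G and 8.06, 8.05 and 8.10 in LCS. Both mutants were below every WT array, by 2.98 and 2.66. The set of Gtsf1l and Zfp850 fell by 2.99 in G609G and 4.51 in LCS, that of Tesb and BC051142, now 1 gene in RefSeq, with 12 probe sets, by 2.50 and 3.17, and that of the tubulins Tuba3a and Tuba3b by 1.11 and 1.38. The testis markers given above, which include Insl3, were lower in both mutants, and their part in these falls was not tested.

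Some sets with genes of muscle or energy metabolism rose in G609G, and those of Cpt1b and Aldoa were chosen after their values were seen. Acaa1a and Acaa1b, peroxisomal enzymes of fatty acid oxidation with 25 probe sets, fell by 0.29, a call lost with arrays centred on their median (-0.19, limma, adjusted p = 0.0504). Cpt1b is the muscle form of the enzyme that admits fatty acids to mitochondria, and it shares 18 probe sets with Chkb-cpt1b, a readthrough from the gene before it. Their level was 6.96, 7.03 and 7.13 in WT, 8.83, 8.80 and 8.94 in G609G and 5.96, 5.89 and 5.85 in LCS. G609G lay above and LCS below every WT array, with folds of 1.82 ± 0.08 and -1.14 ± 0.08. Of the 18 probe sets, 17 were called higher in G609G and 15 lower in LCS. Aldoa, the muscle aldolase of glycolysis, with its retrogene Aldoart1, read 11.76, 11.77 and 11.64 in WT, 12.97, 12.96 and 12.88 in G609G and 11.74, 11.71 and 11.71 in LCS. Only G609G stood apart in that set, by 1.21 ± 0.04, whereas the LCS fold was 0.00 ± 0.04. Asb14 and Dnahc12, an ankyrin repeat protein and an axonemal dynein, were under the filter in WT and LCS and stood 3.27 higher in G609G. Their set passed the filter through its G609G level alone, so that difference is a description. The muscle marker list rose with the sets of Cpt1b and Aldoa in G609G, 4 of its 17 markers were higher in LCS, and its part was not tested. Klf9, a transcription factor induced by glucocorticoids, shares 9 probe sets with 2310051E17Rik, an older name that RefSeq now gives to Klf9 itself, and all 9 were called higher in G609G. The set rose by 1.56 ± 0.04 in G609G and by 0.63 ± 0.04 in LCS.

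**Figure D2:**
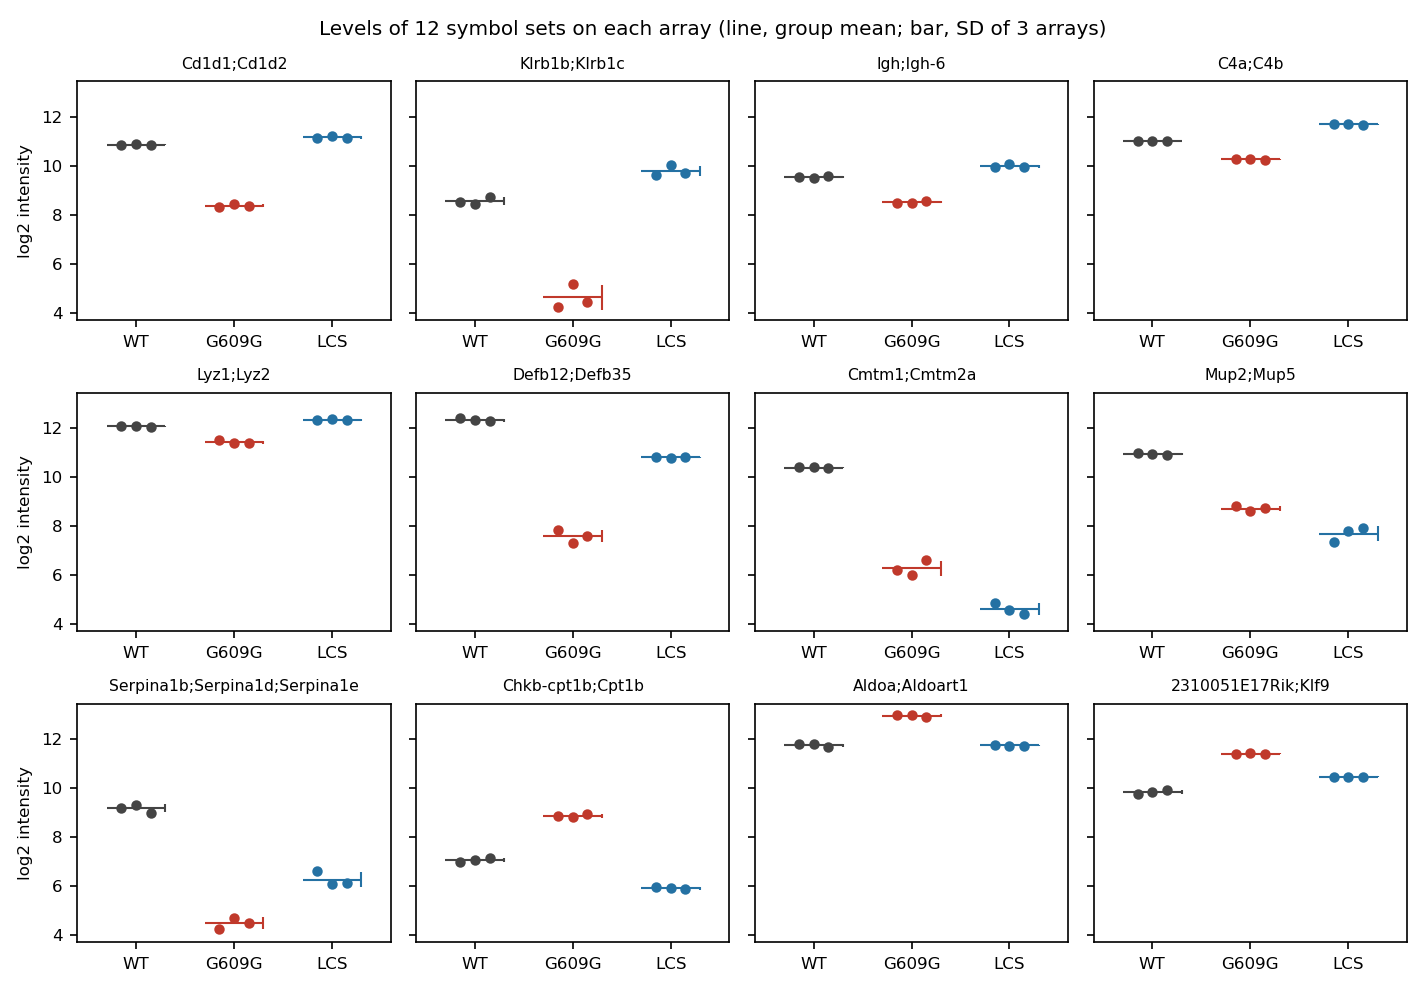
Log2 intensity of 12 symbol sets on each of the 9 arrays, after the array shift, with a point for each array, a line at the group mean and a bar for the SD of 3 arrays. The Cd1d1 and Cd1d2 set reads 8.31 to 8.45 in G609G and at least 10.84 in the other groups, and the Chkb-cpt1b and Cpt1b set 8.80 to 8.94 in G609G and 5.85 to 5.96 in LCS.

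Several sets hold genes of lipid handling or secreted proteins of fat. Cyp4v3, a fatty acid hydroxylase, and its neighbour Klkb1, plasma prekallikrein, share 3 probe sets that read 10.13, 10.13 and 10.28 in WT, 7.45, 7.28 and 7.45 in G609G and 10.42, 10.38 and 10.49 in LCS. That is a fall of 2.79 (SE 0.06) in G609G, and LCS lay slightly above WT by 0.25 (SE 0.06). Fabp5, a fatty acid binding protein, with Fabp5l2, fell by 1.61 in G609G. Rarres2, the adipokine chemerin, with the overlapping Lrrc61, fell by 0.94 in G609G and rose by 0.37 in LCS. C1qtnf5 and Mfrp, whose common promoter is printed above, share 21 probe sets. They stood at 8.71, 8.75 and 8.73 in WT, 7.94 on each G609G array and 6.72, 6.49 and 6.79 in LCS. LCS was lowest, with a fold of -2.06 ± 0.08, while G609G was at -0.79 ± 0.08, and 18 of 21 probe sets were called lower in LCS. The transporter gene Slc5a3 with Mrps6 fell by 1.12 in G609G and rose by 0.56 in LCS. Adipocyte markers did not share 1 direction, with 5 of 12 higher and 6 lower in G609G.

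Some sets were lowest in LCS. Cyp4a10 and Cyp4a31, fatty acid omega-hydroxylases, read 8.17, 7.95 and 8.02 in WT, 7.78, 7.37 and 7.61 in G609G and 3.43, 4.63 and 3.43 in LCS. Their fold in LCS was -4.21 ± 0.28, and that in G609G, -0.46 ± 0.28, missed the threshold (adjusted p = 0.176, 0.0020 with replicate number as a block on the 2 groups, 0.0098 without LCS replicate 2, and 0.0079 on the deposited values with a fold of -0.94). Cyp4a12a and Cyp4a12b fell by 1.41 in LCS and rose by 1.34 in G609G, and neither was called when the filter was set at the 50th percentile (-0.55 and 0.41). Over the 16 cytochrome P450 sets, 11 were higher and none lower in G609G, of which 4 held on every scale. Over all features 35.3% were higher and 28.9% lower in G609G. The Klk1b genes encode kallikreins, proteases of salivary gland and other secretory tissues. The set of Klk1b11, Klk1b21, Klk1b24 and Klk1b27 read 7.66, 7.89 and 7.79 in WT, 7.74, 7.65 and 7.82 in G609G and 4.52, 5.18 and 4.66 in LCS. LCS lay apart in it, by -2.99 ± 0.16, while WT and G609G overlapped, though on the deposited values G609G was also called lower (-0.52, limma, adjusted p = 0.0100). In all, 6 of 9 kallikrein sets were lower in LCS with none higher, beside 14.8% lower and 15.9% higher over all features. Hspa1a and Hspa1l, heat shock chaperones, fell by 1.84 in LCS and differed by -0.07 in G609G, which on the deposited values was a called fall of 0.55 (adjusted p = 0.00641).

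Sets of structural and nuclear genes moved in both directions. Hoxd3 and Hoxd4, position-specifying transcription factors, share 13 probe sets that fell by 1.67 in G609G and differed by -0.09 in LCS. The histone genes H3f3a and H3f3b, which supply a replacement histone, read 10.88, 10.90 and 10.91 in WT and 11.76, 11.68 and 11.66 in G609G. They rose by 0.80 ± 0.04 in G609G, in 10 of 10 probe sets. Of the 15 sets of Hist genes, 4 were called higher in G609G, none of which held on every scale, and 6 lower, which all held. In LCS 5 of them were higher, of which 4 held, and none lower. All 5 tubulin sets were lower in G609G, for example Tuba1b and Tuba1c by 0.39, and 3 of the 5 were higher and 1 lower in LCS. Beside the counts of both families, 35.3% of all features were higher and 28.9% lower in G609G, and 15.9% and 14.8% in LCS. Snrpn and Snurf, an imprinted pair on 1 transcript, fell by 0.90 in G609G, with 6.71, 7.22 and 7.51 there and 8.07, 8.01 and 8.07 in WT. Haemoglobin sets carry the signal of blood in the tissue, and erythrocyte markers, which include Hbb-b1, had a list median of 6.68 to 6.80 in WT, 6.07 to 6.23 in G609G and 6.08 to 6.10 in LCS. Hbb-b1 and Hbb-b2 fell by 0.32 in LCS and by 0.09 in G609G. The latter lost its call without G609G replicate 3 (limma, adjusted p = 0.0563) and turned to 0.0033 with arrays centred on their median.

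Where probe sets of 1 gene alone were also measured, they show which partner a shared probe set moved with. This difference between a set and each of its genes was taken within each array, where both carry the same array shift. The median polish does not pass that shift on exactly. The set of Ms4a4c and Ms4a4d, for example, had folds in G609G of 0.93 on the shifted and 0.38 on the deposited scale, beside a shift of 0.48. The differences were fitted on the shifted scale only. It was tested for 320 pairs of a set and a gene, and 102 (31.9%) were called in G609G against WT, 41 (12.8%) in LCS against WT, of which 26 were called without WT replicate 1 and 25 without LCS replicate 3, and 117 (36.6%) in G609G against LCS. For 75 sets at least 2 genes could be compared. In G609G against WT, 34 of these sets differed from none of their genes, 30 from some and 11 from all. The Cd1d1 and Cd1d2 set lay nearer to Cd1d1, whose own probe sets fell by 2.88, whereas those of Cd1d2, near the filter at 5.36 to 5.62 in group means, differed by -0.20 (set minus gene -2.28 ± 0.18, limma, adjusted p = 3.78e-05). Klrb1c fell by 3.06 by its own probe sets and rose by 1.69 in LCS, while Klrb1b rose by 0.68 in G609G, a difference of -4.61 ± 0.28 between the set and Klrb1b. In the immunoglobulin set the mu chain Igh-6 fell by 1.52 and Igh rose by 0.78. The genes' own folds here and below depend on the array shift, of 0.48 between G609G and WT. They are given on the shifted scale only. Each of these sets also differed from its nearer gene. Set minus gene was 0.40 for Cd1d1 (limma, adjusted p = 0.0267), -0.88 for Klrb1c (adjusted p = 0.0176) and 0.50 for Igh-6 (adjusted p = 0.0189). With the replicate block on the 2 groups these differences lost their calls, at adjusted p of 0.083, 0.052 and 0.069. That for Klrb1c was also lost with the filter at the 50th percentile (-0.43, adjusted p = 0.144) and that for Cd1d1 with only the 2 groups fitted (adjusted p = 0.0736). That for Cd1d1 was further lost without any one WT array or G609G replicate 1 or 2, that for Klrb1c without WT replicate 1 or 3 or G609G replicate 1, and that for Igh-6 without WT or G609G replicate 2.

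Other pairs were compared in the same manner. By its own 26 probe sets Jak3 differed by -0.14 in G609G and rose by 0.38 in LCS, so that its set with Insl3 lay lower by 2.84 and 3.04, and Insl3 had too few of its own to be compared. Cyp4v3 fell by 2.84, close to the set, whereas the fold of Klkb1 was -0.45 (set minus gene -2.34 ± 0.19). Rarres2 fell by 0.89 and Lrrc61 by 0.39, and the set differed from Lrrc61 by -0.55 ± 0.11 (adjusted p = 0.00625). Ms4a4d, a membrane protein of leukocytes, rose by 1.21 in G609G, as did its set with Ms4a4c by 0.93, while Ms4a4c itself was at -0.10. The difference of 1.03 between this set and Ms4a4c was 0.50 and not called with a plain mean of the probe sets (limma, adjusted p = 0.0632). Nr1d1, a clock repressor, rose by 0.56, and its set with the thyroid receptor Thra differed from Thra by 0.65 ± 0.16 (adjusted p = 0.015), though the set's own rise of 0.53 was 0.06 and not called on the deposited values. Both lysozymes moved alike, with -0.65 for Lyz1 and -0.75 for Lyz2, neither different from their set. The kallikreins were an exception to any simple pairing. Klk1b11 rose by 2.40 by its own probe sets, whereas its set with Klk1b21 and Klk1b5 fell by 1.56 (set minus gene -3.96 ± 0.35) and its set with Klk1b24 and Klk1b5 rose by 2.40. Cyp4a10 fell by 3.44 in LCS by its own probe sets, while its set with Cyp4a32 read 1.43 higher there (adjusted p = 0.0281). That call was lost without WT replicate 1 or 3 or LCS replicate 1 or 2, with adjusted p from 0.0575 to 0.104, and at 0.0553 without a trend. Without the filter the fold was 0.30 (limma, adjusted p = 0.412).

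**Figure D3:**
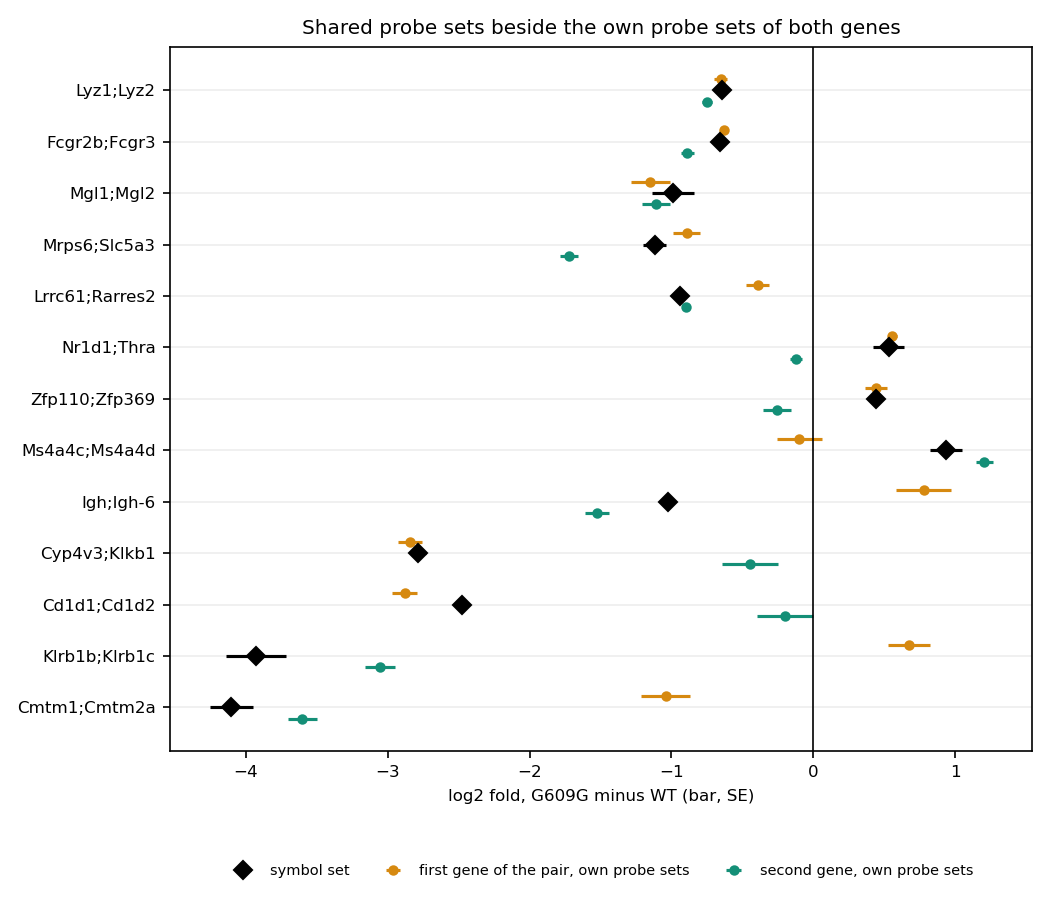
Log2 fold of G609G against WT (horizontal axis, bars for the SE) of 13 symbol sets (diamonds) beside the own probe sets of both genes (circles, the gene named first above and the other below). The Cd1d1 and Cd1d2 set at -2.48 lies near Cd1d1 at -2.88 and far from Cd1d2 at -0.20. On the deposited scale the Zfp110 and Zfp369 set turns to -0.033.

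Olfactory and vomeronasal receptor genes made up 69 sets with 95 probe sets. They detect odours and pheromones in the nose, are among the largest gene families of the mouse and carry many near-identical copies. In G609G, 66 of the 69 sets were higher and none lower, beside 35.3% and 28.9% over all features. Of the rises 57 held on every scale, and the folds of the 69 sets ran from 0.42 to 4.72 with a median of 1.83. In LCS none was higher and 8 were lower. The set of Vmn2r33, Vmn2r34, Vmn2r37, Vmn2r45 and Vmn2r48 read 9.20, 9.11 and 8.93 in WT, 11.57, 11.54 and 11.45 in G609G and 8.34, 8.51 and 8.20 in LCS. G609G lay above and LCS below every WT array, by 2.44 and -0.73. The set of Olfr1371, Olfr1373, Olfr1381 and Olfr1382 rose by 4.72 in G609G. Most receptor probe sets were dim, and those that passed the filter could do so through G609G alone. The 95 that passed had a median level of 5.19 in WT and 7.70 in G609G. The counts and folds of the 69 sets are therefore a description of sets picked in part by their G609G level. All receptor probe sets were also described without the filter. The 407 receptor probe sets with several symbols had median levels of 3.46 on the WT arrays, 5.18 on those of G609G and 3.33 on those of LCS, and 99.3% were higher in G609G than in WT. The 2494 with 1 symbol had 3.35, 4.34 and 3.32, and 98.7% were higher. These levels and shares include the array shift of 0.48 between G609G and WT and were not taken on the deposited values. The median folds were 1.34 with several symbols and 0.85 with 1 symbol. Probe sets of 1 symbol under a WT level of 4 that were not receptors had a median fold of 0.47.

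**Figure D4:**
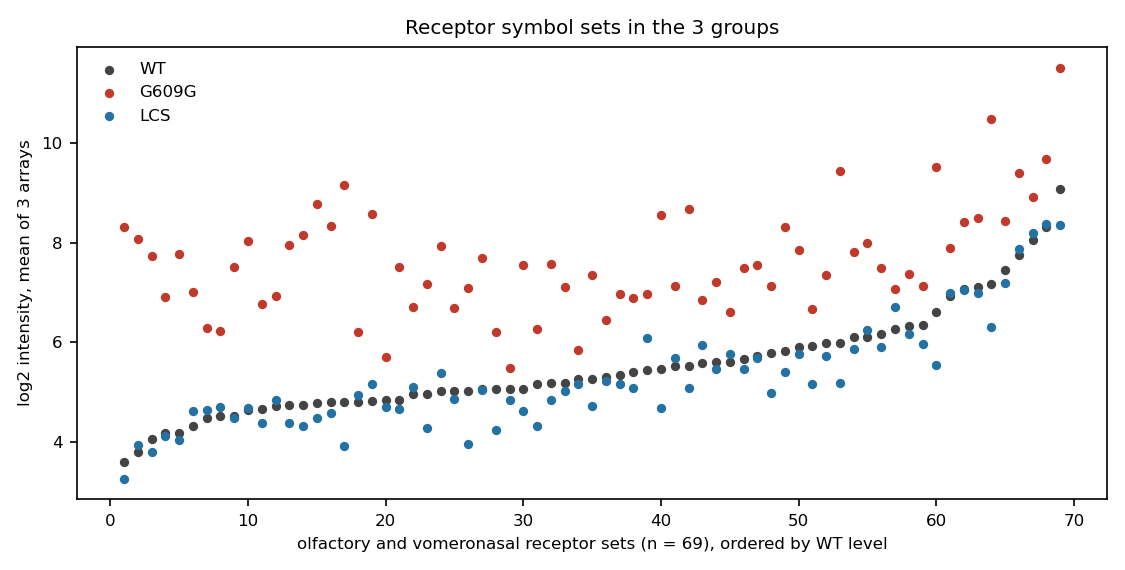
Mean log2 intensity over 3 arrays (vertical axis) of each of the 69 receptor sets in WT, G609G and LCS, ordered by WT level. After the array shift, the G609G point lies above the WT point in all 69 sets, by 0.42 to 4.72.

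Other sets with large positive folds in G609G belonged to germline or X-linked repeated families. Xlr4b, Xlr4c and Xlr4e, from a repeated family on the X chromosome, read 4.48, 3.90 and 3.69 in WT, 8.03, 8.24 and 8.46 in G609G and 4.23, 3.63 and 3.50 in LCS. That set passed the filter through its G609G level alone, so its difference of 4.22 is a description, as are those of the Obox and Speer1-ps1 sets. The oocyte homeobox genes Obox1, Obox2, Obox3 and Obox5 with EG194588, now Obox7, had a fold of 4.93, and the set of Speer1-ps1, EG623849 and EG623898 one of 5.41. Larger sets that hold the same genes read otherwise. With Xlr4a added, the Xlr4 set had folds of 0.08 in G609G (-0.39 on the deposited values) and 1.14 in LCS. With 4933402N22Rik added, the Speer1-ps1 set had folds of 1.53 in G609G and -3.26 in LCS. Fbxw16 with EG382109, now Fbxw26, had folds of 4.79 in G609G and -1.32 in LCS. Folds in G609G were larger among dim probe sets, and this did not extend above a level of 6. Among probe sets under a WT level of 4, the median fold in G609G was 0.75 with several symbols and 0.48 with 1 symbol. These medians include the array shift of 0.48 between G609G and WT, which is about as large as the 1-symbol median. They were not taken on the deposited values. At a level of 5 to 6 the medians were 0.28 and 0.05. From there they did not fall further in order, at 0.02 and -0.12 for 6 to 8, 0.05 and -0.05 for 8 to 10, and 0.11 and 0.00 over 10. Without the receptors the several-symbol medians were 0.65 in the lowest class and 0.21 at 5 to 6. The WT level is part of both axes, and the cause of the relation was not tested.

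**Figure D5:**
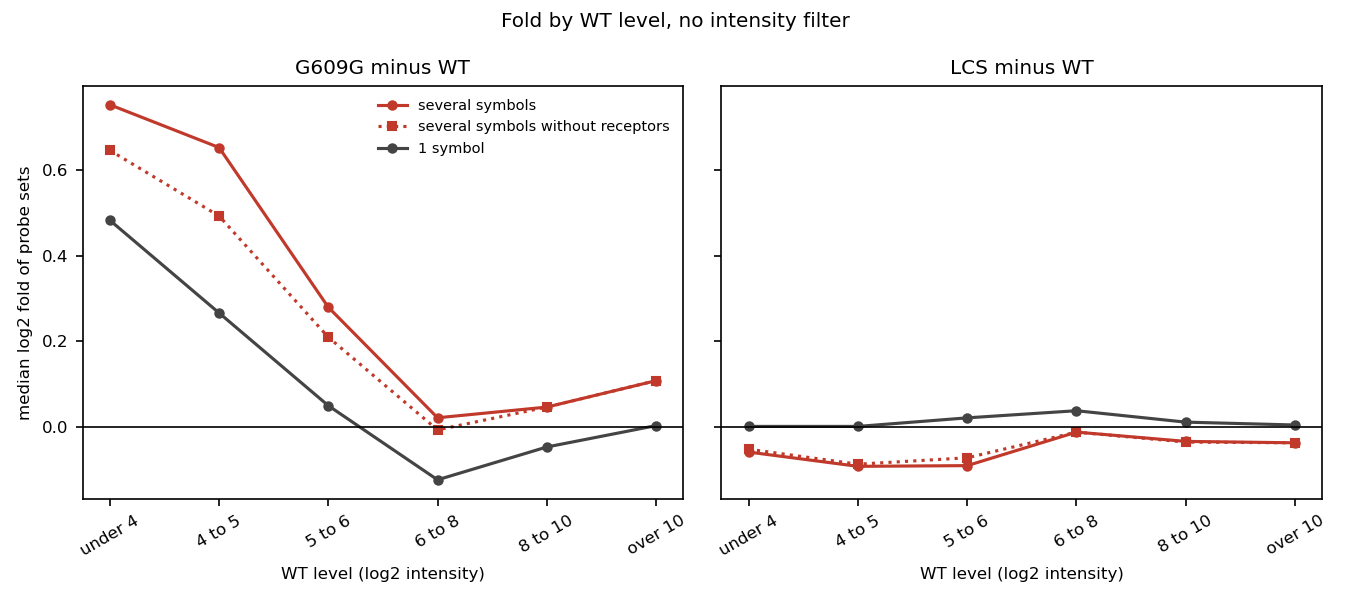
Median log2 fold of probe sets (vertical axis) by class of WT level (horizontal axis), with no filter, for G609G and LCS against WT and for probe sets with several symbols, the same without receptors, and with 1 symbol. In G609G the several-symbol median is 0.75 under a level of 4 and 0.05 at 8 to 10, on the shifted scale.

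Taken singly, the 2677 probe sets gave 909 higher and 614 lower in G609G, 56.9% in either direction beside 48.4% of all 172179 probe sets above the filter. On the deposited values they were 378 higher and 1251 lower. In LCS 227 were higher and 368 lower, 22.2% beside 14.4%, and in G609G against LCS 1031 were higher and 603 lower, 61.0% beside 51.8%. Within the 379 sets of at least 2 probe sets, the folds of the probe sets spanned a median range of 0.88 in G609G and 0.46 in LCS. In 44 of the 379 sets, probe sets were called in both directions in G609G, and in 4 in LCS. In the Hoxd3 and Hoxd4 set, 11 of 13 probe sets were called lower and 1 higher, from -3.07 to 0.97. Ctbp2 and Zranb1, with 27 probe sets, had 14 called higher and 6 lower, and their set stood at 0.30, which changed sign to -0.11 on the deposited values.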

How the data were processed

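Biotin-labelled total RNA of 9 samples was measured on exon arrays. The authors deposited 1 log2 intensity per probe set and array. Neither the summary nor the normalization is stated in the labels, and the genome build was mm9, per the submitters' processing notes. The design text speaks of 10 samples, of which 9 were analysed here.

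Symbols came from the platform's probe-to-gene table. Of 1094 symbols, 767 were current in the RefSeq gene table and 308 matched as synonyms. Each array was shifted by its median deviation from the probe set means, over the probe sets above the 25th percentile. Probe sets above the 25th percentile were summarised per gene or symbol set by median polish, and all 15572 features were fitted in limma 3.58.1 (R 4.3.3, eBayes with a trend, 9 arrays), with Benjamini-Hochberg adjustment over all features and a threshold of 0.05. Differences between a set and a gene with at least 3 probe sets of its own were fitted without a trend. The precision is limited by 3 arrays per group. On simulated data the fit recovered 189 of 200 changed features (94.5%), with 10 false calls, for G609G against WT. The simulation changed 200 of 15572 features by whole log2 units, with noise drawn separately for each probe set. In the real data far more features were called, many at smaller folds. These rates are therefore not the accuracy of the calls above.

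Named were, per comparison, the 8 largest rises and falls that held on every scale, the 10 sets with most probe sets, up to 4 sets per family, and the 8 largest differences between a set and a gene, in so far as each bore on the text. Chosen after their values were seen were the sets of Klf9, Defb11, Aldoa, C1qtnf5, Cd59a, Cpt1b, Fcgr2b, H3f3a, Hba-a1, Hbb-b1, Hoxd3, Hspa1a, Klk1b21 with Klk1b5, Rarres2, Lyz1, Mgl1, Slc5a3, Ms4a4c, Nr1d1 and Snrpn. The members, gene families and marker lists were chosen with earlier results of these data known. Samples with the same replicate number in WT and G609G deviated together from their group means (r = 0.135, 0.113 and 0.260), and the titles give the numbers. With LCS the signs were mixed, at -0.078, 0.129 and 0.052 for WT and -0.069, 0.110 and 0.080 for G609G. The alternatives were other scalings, filters, summaries and fits, the replicate block, leaving out single arrays, and the methods' t-test. Promoters were read from RefSeq's table with Biopython 1.88.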

Additional observations from a re-analysis of the deposited data

How the results depend on the processing

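Of 245 named results, 190 kept their direction and side of the threshold under every alternative that gave them a value. All 245 had one under most settings, 218 under the other scalings and without a trend, and 163 with the filter at the 50th percentile. The methods' t-test was run for counts only. On the deposited scale these folds of G609G against WT changed sign: Gtf3c2 with Mpv17 (-0.36), Pgm1 with Pgm2 (-0.19), Ctbp2 with Zranb1 (-0.11), EG545878 with Tom1 (-0.023), the 12-gene histone H3 set (-0.0033), the 7-gene histone H3 set (-0.025), Cntf with Zfp91 (-0.07), Zfp110 with Zfp369 (-0.033), Bcl2a1a with Bcl2a1b and Bcl2a1d (-0.03) and Xlr4a with Xlr4b, Xlr4c and Xlr4e (-0.39). The last of these was 0.08 on the shifted scale. With arrays centred on their median the set of Hbb-b1 and Hbb-b2 turned to 0.0033. Without a filter more sets were tested, and 701 were called in G609G against WT and 724 in G609G against LCS, with 2398 and 2539 probe sets and 224 and 243 differences between a set and a gene. With the filter at the 50th percentile, fewer were tested, and the differences called were 41, 13 and 41 in G609G against WT, LCS against WT and G609G against LCS. The methods' t-test at a fold of 1.5 gave 271 sets in G609G against WT (251 after Benjamini-Hochberg), 77 in LCS against WT (70) and, after Benjamini-Hochberg, 311 in G609G against LCS. For probe sets it gave 968 (756), 368 (241) and, after Benjamini-Hochberg, 1018. Leaving out each array in turn gave 432 to 468, 168 to 210 and 440 to 488 sets in the 3 comparisons, 1339 to 1564, 448 to 679 and 1468 to 1680 probe sets, and 80 to 100, 25 to 42 and 87 to 120 differences. With the replicate block, 463, 205 and 486 sets were called, and beside the results given in the text it changed no other call of a set or difference described there. A fit of the differences without a trend was not run apart, since their main fit has none. With 3 arrays per group and levels near the filter, folds of dim sets are uncertain.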
